A study of Mus musculus with 6 samples.

Results

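The 5 rows of the count table described here are Rpph1, Rmrp, Rn7sk and Terc, which are small RNAs that work as RNA and are not translated, and the row with the Entrez identifier 100861531. They are 5 of the 27179 rows of the table. They were chosen on measured values, their shares of the library in R783H and WT, so their own differences are given as a description with no test. All 5 passed the filter on low counts that left 14199 tested genes, Rn7sk only through its WT libraries. The identifier 100861531 had no entry in the gene tables used here, so it is referred to by its number, and its class as a structural RNA could not be checked.

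Mouse embryonic stem cells of the ES-E14TG2a background were the source of the RNA, which was selected on oligo(dT) and sequenced. All cells carried Trim71, a TRIM-NHL protein that binds RNA, with a FLAG tag. The tagged protein was unchanged in the WT group and carried the R783H amino-acid change, which the series title links to hydrocephalus, in the R783H group. Each group had 3 libraries with the letters A, B and C, and all cells were grown in serum-containing 2i medium with LIF, which holds them in the naive state. What the letters stand for (clones, cultures or preparations) is not stated, so the p-values measure only the spread between these libraries, which may be technical.

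Rpph1 is the catalytic RNA of RNase P, the enzyme that cuts the 5′ leader from precursor tRNAs. Rmrp is the RNA of the related RNase MRP, which acts on precursor ribosomal RNA and shares most of its proteins with RNase P. Rn7sk, or 7SK, holds the elongation kinase P-TEFb in an inactive particle, and Terc is the template RNA of telomerase. The first 3 are made by RNA polymerase III and Terc by RNA polymerase II, and the mature forms carry no long poly(A) tail. Selection on oligo(dT) is therefore made against them, and a level here is that of the reads that came through the selection, not that of the RNA in the cell. Fewer cells with an RNA and less of it per cell cannot be told apart in these bulk libraries.

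Total counts ran from 20894277 to 29079670 a library, and the shallowest R783H library was deeper than the deepest WT library. The 3 values of a group are always given in the order A, B, C. The 7 naive stem cell markers examined were abundant in all libraries, with 3 lower, 1 higher and 3 not called in R783H. Over all tested genes 30.9% were called lower and 33.5% higher, so such calls are common in this table. The summed level of 6 fibroblast markers stayed between 2.12 and 3.69 CPM, the usual scale for counts as a share of the library total. Of its 3 tested genes, Col1a1 and Col1a2 were not called. Thy1 was at 0.194 ± 0.111 in R783H and 1.31 ± 0.0743 in WT on the scale after TMM scaling. It passed the filter only through WT, so these levels are given as values and not as a call. The summed level of 6 primitive endoderm markers was 10.4 to 11.4 in R783H and 5.01 to 7.23 in WT. Gata4, which had the most counts of the 6 in every library, was called higher among 5 tested, and 3 were not called. Sox17 passed the filter only through R783H, so its log2 fold change of 1.29 ± 0.29 (SE) is given as a value. Sox7, which was not tested, went the other way, with 3, 2 and 4 counts in R783H and 15, 9 and 19 in WT. The summed level of 6 trophoblast markers was 14.5 to 15.3 in R783H and 29.8 to 32.1 in WT. Of the 3 tested, Cdx2 and Tfap2c were called lower, and Tfap2c had the most counts of the 6 in every library. Gata3 was called higher at a log2 fold change of 0.73 (adjusted p = 0.00349, edgeR). The part of these markers and of depth in the results was not tested. Trim71 itself was at 144 ± 12.8 scaled CPM (the same after TMM scaling of the libraries, SD, n = 3) in R783H and 140 ± 16.4 in WT. Its log2 fold change was 0.03 ± 0.08 (SE), and its adjusted p was 0.743 in the quasi-likelihood test of edgeR, adjusted by Benjamini-Hochberg over all tested genes. With an offset for transcript length and GC content it was called lower, at -0.27 (adjusted p = 0.00139).

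The sequences of the 4 named RNAs bear on how such reads can enter an oligo(dT) library and to which gene they can be assigned. Their last 40 bases are shown first because that end would carry any added tail. Capitals mark runs of 3 or more A, and the transcripts are those of GENCODE M21 on GRCm38 (mm10), all on the minus strand.
Rpph1 (chr14:50807449-50807488): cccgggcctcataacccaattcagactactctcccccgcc
Rmrp (chr4:43492788-43492827): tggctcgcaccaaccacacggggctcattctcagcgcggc
Rn7sk (chr9:78175303-78175342): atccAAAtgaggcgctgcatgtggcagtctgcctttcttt
Terc (chr3:96414437-96414476): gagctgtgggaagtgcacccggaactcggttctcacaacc
None of the 4 ends in A, and only the Rn7sk end holds a run of 3. Over the whole RNAs the longest run of A was 2 bases in Rpph1 (319 nt), 3 in Rmrp (271 nt), 3 in Rn7sk (331 nt) and 5 in Terc (423 nt). The run in Terc lies at bases 155 to 159, and is shown in capitals within the 40 bases around it because it is the longest in the set.
Terc (chr3:96414683-96414722): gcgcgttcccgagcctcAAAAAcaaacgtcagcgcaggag
Of the 16517 annotated transcripts of 250 to 450 nt, 13.1% hold a run of 6 or more A, and the median longest run is 4. No run of 6 was found in the 4 RNAs.

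Rpph1 had the largest difference of the 5. It had 253, 251 and 342 counts in WT, and 10, 31 and 28 in R783H. As a share of the library this was 12.1, 9.97 and 15.6 CPM in WT and 0.344, 1.11 and 0.974 in R783H. All 3 WT libraries were high, all 3 R783H libraries were low, and the groups did not overlap. The mean share was 12.6 ± 2.85 in WT and 0.811 ± 0.41 in R783H (SD, n = 3), which is 15.5-fold higher in WT, or a log2 ratio of -3.95 for R783H over WT. R783H A, with 10 counts, was the lowest library, and its 95% exact binomial interval of 0.165 to 0.632 CPM lies below those of R783H B (0.757 to 1.58) and R783H C (0.647 to 1.41). These intervals cover counting error only.

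**Figure D1:**
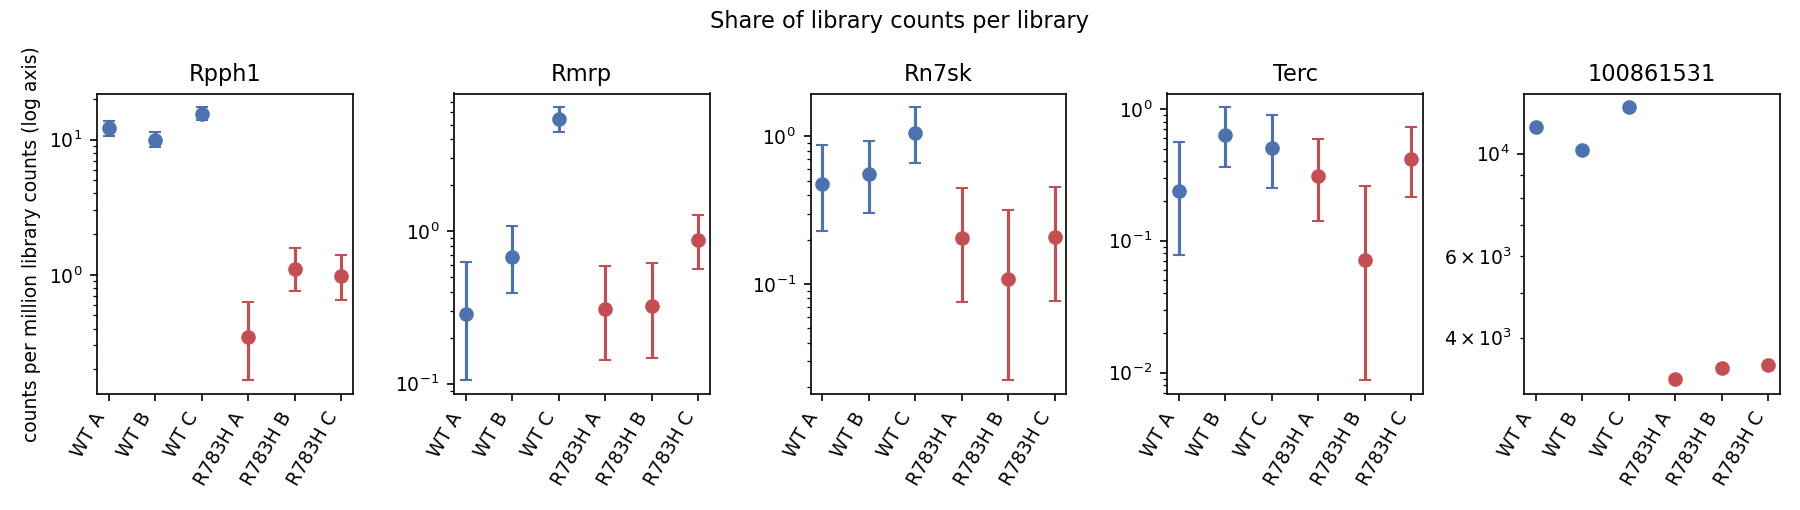
Share of library counts (CPM, log axis with its own range in each panel) of the 5 rows in each library, WT in blue and R783H in red, with exact binomial intervals where wider than the point. The groups are apart for Rpph1, Rn7sk and 100861531, whereas Rmrp and Terc overlap, and WT C stands alone for Rmrp.

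Rn7sk was scarce in every library. It had 10, 14 and 23 counts in WT and 6, 3 and 6 in R783H. The shares were 0.479, 0.556 and 1.05 CPM in WT and 0.206, 0.108 and 0.209 in R783H. The groups did not overlap, though the R783H counts are close to the floor of 3 counts, which is 0.103 to 0.144 CPM in these libraries. The mean share was 0.695 ± 0.31 in WT and 0.174 ± 0.0575 in R783H (SD, n = 3), 3.99-fold higher in WT. The interval of WT A, 0.23 to 0.88 CPM, overlapped those of R783H A, 0.0757 to 0.449, and R783H C, 0.0766 to 0.454.

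Rmrp did not separate the groups. It had 6, 17 and 119 counts in WT and 9, 9 and 25 in R783H. The shares were 0.287, 0.675 and 5.43 CPM in WT and 0.309, 0.324 and 0.869 in R783H. WT C was far above the other 5 libraries, and WT A was the lowest of all 6. The mean share of 2.13 ± 2.87 in WT and 0.501 ± 0.319 in R783H gave a log2 ratio of -2.09, which rests on WT C: without it the ratio was 0.06. The spread between the WT libraries, a coefficient of variation of 134.0%, was far beyond the 14.5% that counting alone would give.

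Terc overlapped as well. It had 5, 16 and 11 counts in WT and 9, 2 and 12 in R783H, shares of 0.239, 0.636 and 0.502 against 0.309, 0.0719 and 0.417 CPM. R783H B, with 2 counts, was under the floor, and WT A was below both other R783H libraries. The mean was 0.459 ± 0.202 in WT and 0.266 ± 0.177 in R783H (SD, n = 3), a log2 ratio of -0.79. That ratio was -0.34 without R783H B and -1.27 without R783H C, and without WT A the groups no longer overlapped. At this depth no difference in Terc was detectable beyond the spread.

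The row 100861531 was of another order of abundance. It had 238051, 256916 and 274890 counts in WT and 94667, 95662 and 100399 in R783H. It took 1.14%, 1.02% and 1.26% of all counts in the WT libraries and 0.326%, 0.344% and 0.349% in the R783H libraries. It was the row with the most counts in each WT library and the row of rank 6 in each R783H library. The WT mean was 3.35-fold higher and the groups did not overlap, with a coefficient of variation of 10.3% in WT and 3.66% in R783H.

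Across the 5 rows, then, 3 were lower in every R783H library than in every WT library, and 27.5% of all tested genes met the same criterion. Since the rows were chosen on this comparison, nothing is read from that share. In WT C the shares of Rpph1, Rmrp, Rn7sk and 100861531 were all the highest of the 6 libraries, while that of Terc was highest in WT B. The 4 named RNAs together came to 13.1, 11.8 and 22.6 CPM in WT and 1.17, 1.62 and 2.47 in R783H. Their make-up differed too: Rpph1 was 69.1% to 92.3% of the counts of the 4 in WT and 29.4% to 68.9% in R783H. The row 100861531 held between 99.82% and 99.96% of the counts of all 5, so a sum over the 5 rows is in effect that row alone.

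Per length, using the RefSeq lengths of 325, 275, 332 and 397 nt, the order in WT was Rpph1, Rmrp, Rn7sk and Terc. The levels were 38.7 ± 8.77, 7.75 ± 10.4, 2.09 ± 0.934 and 1.16 ± 0.508 CPM per kb (SD, n = 3). Rpph1 stood apart from the other 3. By mean ± SD Rmrp overlapped Rn7sk, and Rn7sk overlapped Terc, though Rn7sk was above Terc in each WT library, narrowly in WT B. In R783H the levels were 2.49 ± 1.26 for Rpph1, 1.82 ± 1.16 for Rmrp, 0.671 ± 0.445 for Terc and 0.525 ± 0.173 for Rn7sk. All neighbours in that order overlapped by mean ± SD, though Rmrp was above Terc in each R783H library. No length was at hand for 100861531, so it is not placed in this order.

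Neighbouring genes were examined because several of these RNAs share DNA with them. Rpph1 (RefSeq, chr14:50807447-50807771, GRCm38) lies head to head with Parp2, a DNA-damage sensor, whose RefSeq gene starts 125 bp away. On its other side an exon of a Ccnb1ip1 transcript in GENCODE (chr14:50807500-50807732) lies inside Rpph1 on the same strand, so 233 bases are identical and reads there cannot be assigned to either gene by sequence. The bases between that exon and the GENCODE start of Parp2 are shown, read toward Rpph1, because they hold the stretch that both starts share, with the RNA of Rpph1 in capitals.
Rpph1 start (chr14:50807733-50807840, minus strand, RefSeq promoter table of GRCm38.p6): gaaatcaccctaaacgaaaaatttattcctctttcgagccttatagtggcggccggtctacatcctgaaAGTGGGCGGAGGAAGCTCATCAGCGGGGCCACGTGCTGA
The letters TATAA, searched on both strands, were found on the opposite strand of the 69 bases before Rpph1, with the match opening 29 bases before its first base. Windows of the same size and place held these letters in 7.95% of 32851 RefSeq promoters. Parp2 had 2072, 1878 and 2045 counts in R783H and 1388, 1801 and 1519 in WT, that is 68.1 ± 1.62 against 71.1 ± 2.36 scaled CPM (SD, n = 3). Its log2 fold change was -0.06 ± 0.05 (SE, adjusted p = 0.263, edgeR), and its groups overlapped. Ccnb1ip1, a ubiquitin ligase of meiotic crossing over, fell from 34.4 ± 1.53 to 26.2 ± 1.02 scaled CPM, a log2 fold change of -0.39 ± 0.06 with an adjusted p of 1.75e-04 by edgeR. The large difference in Rpph1 was thus not shared in size by either neighbour, a comparison of values that was not itself tested.

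Rmrp (RefSeq, chr4:43492785-43493059) lies 280 bp from Ccdc107, a coiled-coil protein gene, and a non-coding GENCODE transcript of Ccdc107 has an exon (chr4:43492900-43493023) inside Rmrp on the opposite strand. Whether the authors counted by strand is not given in the sources used here, so reads of this stretch could belong to either. The whole RNA is shown because Rmrp is the member whose value rests on 1 library, with bases 36 to 159, the antisense exon, in capitals.
Rmrp (chr4:43492788-43493058): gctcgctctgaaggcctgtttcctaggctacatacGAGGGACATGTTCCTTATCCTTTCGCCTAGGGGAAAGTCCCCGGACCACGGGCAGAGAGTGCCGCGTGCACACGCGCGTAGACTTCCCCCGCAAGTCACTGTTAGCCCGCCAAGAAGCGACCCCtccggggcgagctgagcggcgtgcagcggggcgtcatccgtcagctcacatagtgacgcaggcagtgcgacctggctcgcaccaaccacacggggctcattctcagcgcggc
Ccdc107 had 290, 325 and 278 counts in WT, with nothing in WT C to match the 119 counts of Rmrp there, and 487, 441 and 451 in R783H. It was 0.21 ± 0.07 higher on the log2 scale (SE, adjusted p = 0.0244, edgeR), a call lost with DESeq2 (adjusted p = 0.115), without R783H A (0.111), without WT B (0.0916) and without WT C (0.0897). Sit1, on the far side, had 0 or 1 count a library and was not tested.

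Rn7sk (RefSeq, chr9:78175302-78175633) lies between Cilk1, a kinase of ciliogenesis, and C920006O11Rik, a long non-coding RNA that starts 280 bp away. Both neighbours rose in R783H, as did 33.5% of all tested genes, while Rn7sk was lower in each R783H library. Cilk1 went from 16.6 ± 1.09 to 20.5 ± 0.703 scaled CPM (log2 fold change 0.3 ± 0.07, adjusted p = 0.00344, edgeR), a call lost with a transcript length and GC offset (0.06, adjusted p = 0.478). C920006O11Rik had 29, 28 and 38 counts in WT and 76, 60 and 80 in R783H (log2 fold change 0.76 ± 0.2, adjusted p = 0.00534, edgeR). The other annotated genes Gm24447 and Gm26315 match Rn7sk over 241 nt at 100% and 238 nt at 99.58%, so its counts are uncertain where reads of these stretches were split or dropped in counting. The nearest genes to Terc (RefSeq, chr3:96414437-96414833), a tRNA and a small nuclear RNA gene, had no row in the table, and no near-identical copy of Terc was found.

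**Figure D2:**
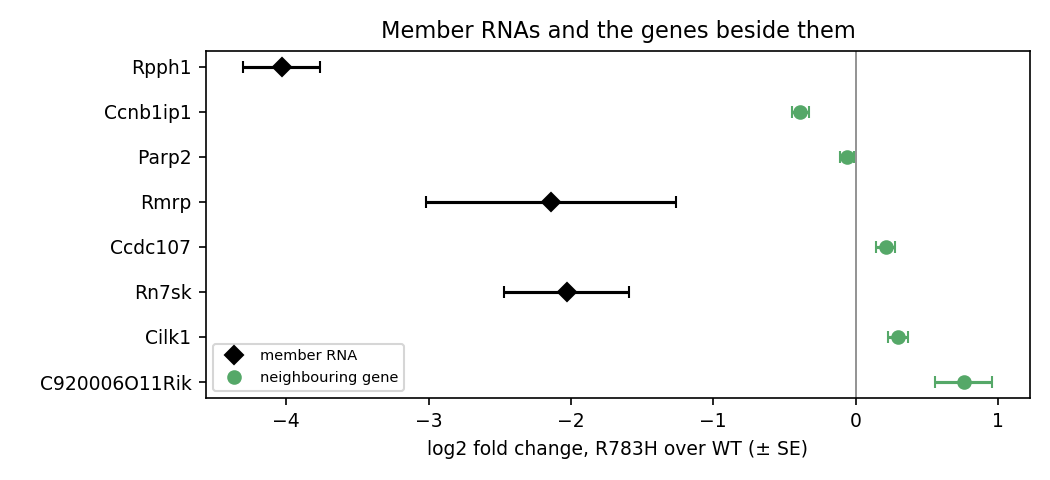
Log2 fold change of R783H over WT from the edgeR fit, with its SE, for 3 of the RNAs (black diamonds, shown as a description) and the tested genes beside them (green circles). Rpph1, Rmrp and Rn7sk lie at -4.03, -2.14 and -2.03, and their neighbours lie between -0.39 and 0.76.

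The proteins that bind, transcribe or trim these RNAs were examined as 6 lists with 86 genes in all, and every one passed the filter. In R783H 65 of the 86 (75.6%) fell and 4 (4.65%) rose, with a median log2 fold change of -0.32. The number that rose was 8 without R783H B and 7 when libraries were scaled by total counts alone. Over all 14199 tested genes, 30.9% were called lower, 33.5% higher and 64.5% in either direction at an adjusted p under 0.05, with a median of 0.03. The lists are described by these counts and were not tested as sets. The genes of the lists had a median transcript length of 2861 nt against 3364 nt over the 13067 tested genes with a length, and with an offset for length and GC content 73 of the 86 were called lower, against 37.5% of all genes in that fit.

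Of the 11 proteins of RNase P and RNase MRP, 9 fell, none rose, and the median log2 fold change was -0.37. Rpp25l, a paralog of the RNA-binding subunit Rpp25, fell most, from 44.1, 42.6 and 42.4 scaled CPM in WT to 23.9, 26.3 and 25.3 in R783H, a log2 fold change of -0.77 ± 0.06 (SE, adjusted p = 8.09e-07, edgeR). The log2 fold change was -0.65 for the small subunit gene Rpp14, -0.57 for Pop1, the largest protein of both enzymes, and -0.54 for Pop5. Each of these 4 was lower in all 3 R783H libraries than in any WT library. By library share, 27.5% of all tested genes met that criterion, and these 4 were named for having the largest changes in the list. Rpp21, a protein of RNase P, at 0.04 ± 0.08 (adjusted p = 0.661, edgeR), and Rpp38 at -0.05 ± 0.08 (adjusted p = 0.625, edgeR) were not called. Rpp21 was called higher with the length and GC offset, at 0.2 (adjusted p = 0.0108). The log2 fold change farthest from 0 in the list was thus -0.77, beside a log2 ratio of -3.95 for Rpph1 itself.

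Among the 7 proteins of the 7SK particle and P-TEFb, 4 fell and 2 rose, with a median of -0.19. Mepce, the enzyme that caps 7SK, went from 106, 100 and 102 scaled CPM in WT to 63.0, 69.0 and 67.3 in R783H (log2 fold change -0.63 ± 0.05, adjusted p = 1.38e-06, edgeR). Hexim1, which inhibits P-TEFb within the particle, Cdk9, the kinase of P-TEFb, and Larp7, which binds the 3′ end of 7SK, had log2 fold changes of -0.26, -0.22 and -0.19. The call of Larp7 was lost when libraries were scaled by total counts alone (adjusted p = 0.116). The cyclins of P-TEFb went the other way: Ccnt1 rose from 42.3 ± 2.04 to 57.0 ± 4.01 scaled CPM (0.43 ± 0.06, adjusted p = 1.25e-04, edgeR) and Ccnt2 from 90.0 ± 3.56 to 117 ± 7.51. The call of Ccnt2 was lost with the length and GC offset (adjusted p = 0.0782). Hexim2, at 5.65 ± 0.136 scaled CPM in R783H and 6.12 ± 1.04 in WT, was not called.

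Of the 8 telomerase proteins, 7 fell and 1 rose, with a median of -0.47. Nhp2 and Nop10, small proteins of the H/ACA core that holds the 3′ part of Terc, had log2 fold changes of -0.84 and -0.79. Nhp2 was at 356, 339 and 325 scaled CPM in WT and 180, 208 and 183 in R783H (SE 0.06, adjusted p = 6.14e-07, edgeR). The log2 fold changes were -0.57 for Gar1, also of that core, -0.53 and -0.33 for the assembly factors Naf1 and Shq1, -0.4 for Wrap53, which brings telomerase to Cajal bodies, and -0.24 for Dkc1, the pseudouridine synthase of the core. These core proteins also serve H/ACA small nucleolar RNAs. The exception was Tert, the reverse transcriptase, which rose from 17.5, 16.6 and 16.3 scaled CPM in WT to 21.6, 21.4 and 22.5 in R783H (0.38 ± 0.06, adjusted p = 3.5e-04, edgeR).

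**Figure D3:**
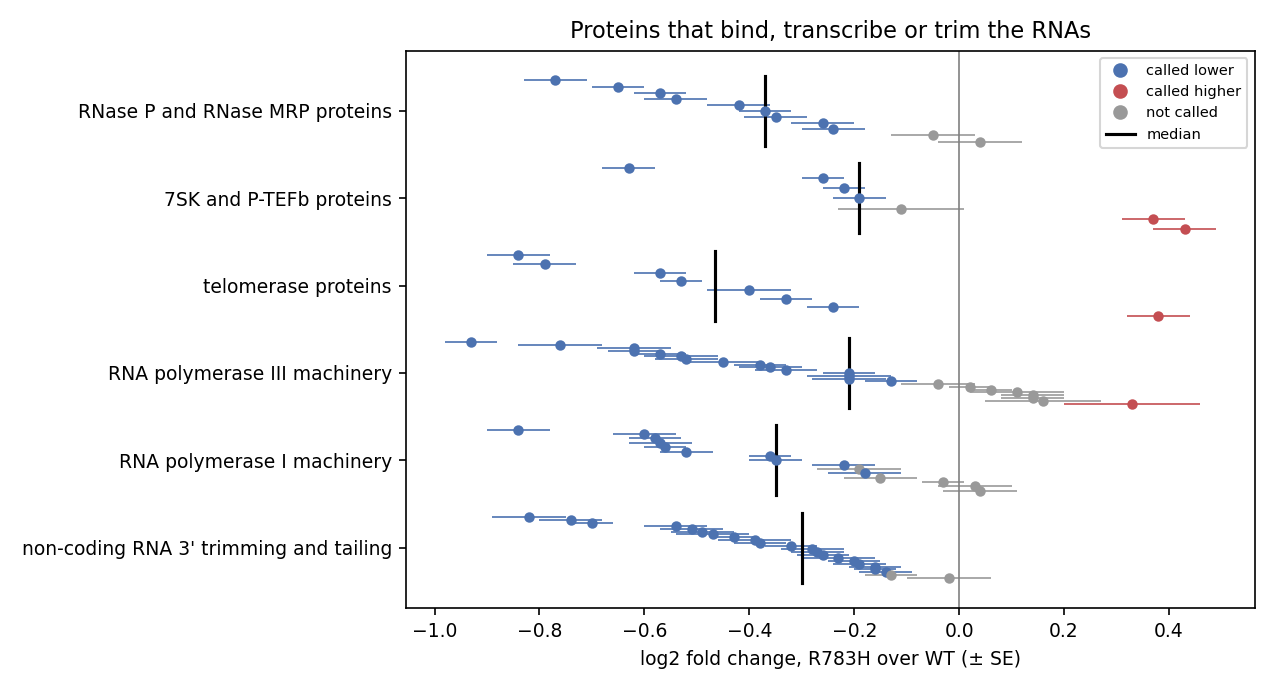
Log2 fold change of R783H over WT with its SE for the 86 protein genes in their 6 lists, blue where called lower, red where called higher and grey where not called, with the median of each list as a black bar. The medians lie between -0.47 and -0.19, and 65 points are blue and 4 are red.

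The transcription machinery showed a similar split by counts. Of 23 genes of RNA polymerase III and its factors, 15 fell and 1 rose, with a median of -0.21. Snapc5, of the complex that recognises the upstream elements of genes such as Rpph1 and Rn7sk, had a log2 fold change of -0.76 ± 0.08 (SE, adjusted p = 1.23e-05, edgeR). The subunit gene Polr3k and Snapc2, of the same complex as Snapc5, were both at -0.62. The 1 that rose, Polr3gl, a variant subunit at 5.13 scaled CPM in WT, had overlapping groups and an adjusted p of 0.0494 by edgeR, and no gene of this list was called higher with DESeq2, with RLE size factors, or without any 1 of R783H A, R783H C, WT A and WT C. Without R783H B, 5 genes of the list were called higher, and with scaling by total counts alone 4 were. Of 15 genes of RNA polymerase I, 10 fell and none rose, with a median of -0.35. The log2 fold change was -0.84 for the subunit gene Polr1e, -0.6 for the factor subunit Taf1c and -0.58 for Polr1d.

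Proteins that take part in trimming or tailing the 3′ ends of non-coding RNAs, not all of them enzymes, were listed because an added tail makes an RNA visible to oligo(dT). Of these 22, 20 fell and none rose, with a median of -0.3. The exosome core genes Exosc4 and Exosc3 had log2 fold changes of -0.82 and -0.74, and Pabpn1, the nuclear poly(A)-binding protein, had -0.7 ± 0.04 (SE, adjusted p = 1.21e-07, edgeR). Exosc6, also of the exosome, was at -0.54. No amount of tail on any of the 5 rows was measured, and the part of these proteins in their levels was not tested.

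**Figure D4:**
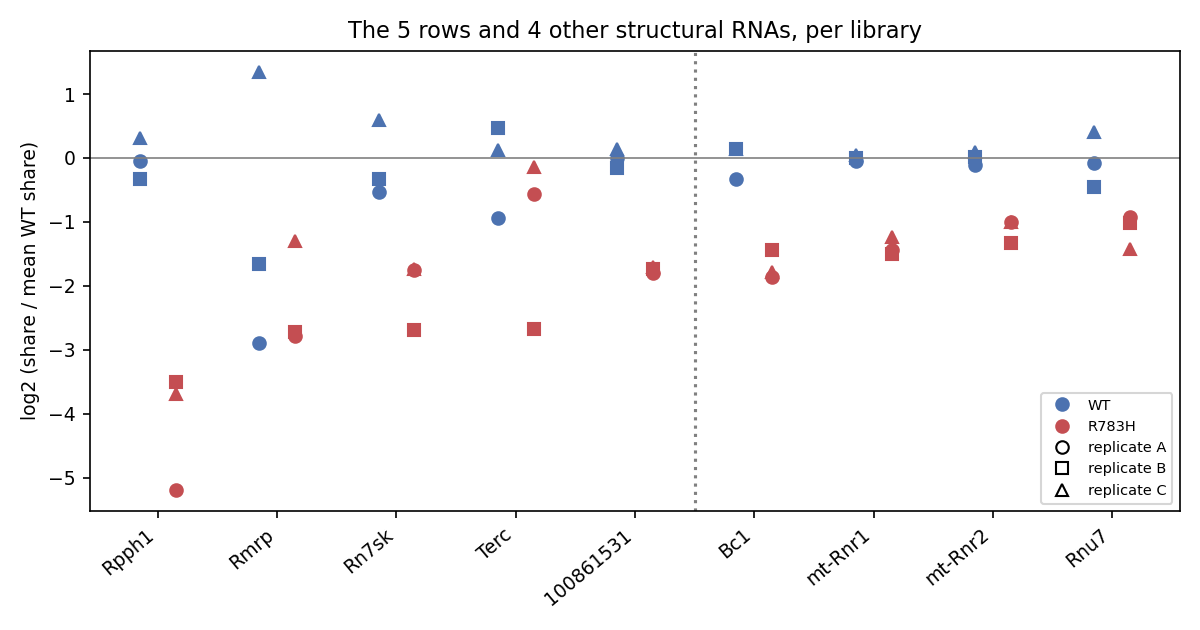
Log2 of each library's share over the mean WT share for the 5 rows (left of the dotted line) and 4 other structural RNAs (right of it), WT in blue and R783H in red, with a symbol for each replicate letter. On the right the R783H points of each RNA lie below its WT points, as do those of 27.5% of all tested genes. Rnu7 passed the filter only through WT, so its points are shown as values. The WT points of Rmrp are spread most widely.

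Other RNAs of the same kind were read from a list of 44 small nuclear, small Cajal body, ribosomal, vault, Y and similar RNAs. By symbol, 34 had a row, and 5 of those had no count at all. The 1904 rows whose identifier had no symbol could not be searched, so a listed RNA may be among them. Of the rows found, only 4 passed the filter. The 3 with at least 10 counts in every library, Bc1, mt-Rnr1 and mt-Rnr2, all fell, where 30.9% of all tested genes were called lower. Bc1, a short RNA made by RNA polymerase III with an internal A-rich stretch, had 535, 895 and 777 counts in WT and 257, 331 and 269 in R783H, a log2 fold change of -1.77 ± 0.14 (SE, adjusted p = 1.15e-06, edgeR). The mitochondrial ribosomal RNAs, which carry short A tails, had log2 fold changes of -1.47 ± 0.06 (mt-Rnr1, adjusted p = 3.55e-08, edgeR) and -1.19 ± 0.08 (mt-Rnr2, adjusted p = 4.1e-07, edgeR). Rnu7, the U7 RNA that takes part in histone mRNA 3′ processing, had 13, 12 and 19 counts in WT and 10, 9 and 7 in R783H, and passed the filter only through WT, so its log2 fold change of -1.16 ± 0.34 (SE) is given as a value and is not counted with the other 3.

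The remaining rows were summed because each had few counts. The 31 rows other than Bc1 and the mitochondrial pair, Rnu7 among them, came to 61, 82 and 76 counts in WT and 54, 38 and 57 in R783H. As shares these were 2.92, 3.26 and 3.47 CPM in WT and 1.86, 1.37 and 1.98 in R783H. All 3 sums were lower in R783H than in any WT library, a criterion that 27.5% of all tested genes met by library share. The mitochondrial pair together came to 825 to 934 CPM in WT and 343 to 425 in R783H.

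Genes whose log2 CPM followed each row most closely over the 6 libraries were found among the genes averaging at least 50 counts. The 6 points share their libraries and the difference between the groups, so the values of Pearson's r are a description. For 100861531 the closest were Ctps, a CTP synthase (r = 0.9997), the row with the identifier 19791, which also had no entry in the gene tables (0.9995), and Serpinb9b, a serpin (0.9993). The row 19791 had 15644, 16661 and 17007 counts in WT and 5786, 5768 and 6117 in R783H. For Rpph1 they were Stt3b, an oligosaccharyltransferase subunit (0.9997), the transcription factor gene Myrf (0.9989) and Cops9, of the COP9 signalosome (0.9984).

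For Rn7sk the closest were Eif2s2, a translation initiation factor (0.9957), Pwwp3b (0.9957) and Dars, an aspartyl-tRNA synthetase (0.9954). For Terc they were Ppil4 (0.9862), Zfp644 (0.9844) and Zfp959 (0.9806), and for Rmrp they were Rdh10, a retinol dehydrogenase (0.9568), the connexin gene Gja1 (0.9568) and Gm4928 (0.9559). The number of genes with r over 0.95 ran from 2090 for 100861531 and 1708 for Rpph1 to 325 for Rn7sk, 20 for Terc and 3 for Rmrp. Both rows with many such genes are those whose groups lie far apart against their spread, and Rmrp, with its single high library, had the fewest.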

How the data were processed

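The authors deposited raw read counts per gene, with Entrez identifiers and a column for each library. The submitters' processing notes name CASAVA 1.4, HISAT2, SAMtools and mm10. The counting tool, its annotation and its strand setting are not given in the sources used here. Groups came from the titles, and 0 columns were left unassigned.

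Symbols came from RefSeq (GRCm38.p6), which matched 25275 of 27179 identifiers. CPM are shares of the library total, and scaled CPM use TMM-scaled totals. Genes were kept with filterByExpr of edgeR 4.0.16 (minimum count 10, minimum total 15), scaled by TMM and tested with the quasi-likelihood test in R 4.3.3, with group as the single term. A gene is called, or said to rise or fall, at a Benjamini-Hochberg adjusted p under 0.05 over 14199 genes, and fold changes are log2 of R783H over WT. The steps were tested on simulated data. DESeq2 1.42.0, other scalings and filters, a replicate block, a length and GC offset from GENCODE M21 and leaving out each library were alternatives. BLAST 2.17.0 found near-identical copies (at least 98% over 100 nt).

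The members and lists were chosen with earlier results of these data known. Named genes were the members, Trim71, the tested RNase P, 7SK and telomerase proteins, up to 4 called genes with the largest change in each other list, structural RNAs averaging 10 counts in a group, neighbours and the 3 most alike genes of each member. Polr3gl, Thy1, Sox17, Sox7 and the called markers of other cell types were named after their values were seen. A gene that this rule names is not reported here.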

Additional observations from a re-analysis of the deposited data

How the results depend on the processing

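Among the 5 rows Rmrp was the value that reversed: its log2 ratio ran from -2.75 to 0.06 when 1 library was left out, and it was 0.06 without WT C. The number of protein genes called higher was 4, and became 7 when libraries were scaled by total counts alone and between 3 and 8 when 1 library was left out, with 8 without R783H B. Scaling by total counts put the median of all genes at 0.11 and that of the protein genes at -0.24. The other structural RNAs called lower numbered 4 with Rnu7 included, 3 when 10 counts were asked of each library, 7 with no filter on low counts, and 1 with the length and GC offset, where fewer of them had a length. With a replicate block 9260 genes were called against 9152, and 67 protein genes were lower and 3 higher. Libraries of the same letter had correlations of -0.07, 0.00682 and 0.0851 in their deviations from the group means, so the letters were not taken as pairs. The call of Polr3gl was lost with the replicate block (adjusted p = 0.056). Trim71 reversed with the length and GC offset, from 0.03 to -0.27 (adjusted p = 0.00139). The neighbours, listed genes, called markers, Thy1, Sox17, Polr3gl and Trim71 make 55 genes. Of these, 47 kept their side of the threshold in every setting run, and Trim71 was the 1 reversal in 708 comparisons. For Trim71, Thy1, Sox17 and the called markers these settings were added after seeing the data. The genes most like each row were not rerun. The low counts of Rmrp, Rn7sk and Terc limit their precision, and groups of 3 libraries were not examined for outlying values.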
